A study of Sus scrofa with 5 samples.

Results

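The subject is the change in human transcripts between the 24 h and the 48 h biopsy of a pig kidney transplanted into a human recipient, measured by bulk RNA sequencing in the second case of the study. Genes were taken from the table of reads counted over the human genome when they had at most 3 counts in the 2 control libraries together and 10 or more counts in at least 1 of the 2 biopsies. This gave 1173 genes of 59289 symbols in the human table, and of 18919 human-table genes that reached 10 counts in either biopsy. The controls were 2 kidney libraries at 0 h labelled only as control, with nothing to say whether they are separate biopsies or the same kidney, and the xenograft gave 1 biopsy each at 12, 24 and 48 h, so a time point is 1 library of 1 graft and no difference between times has a replicate check. The labels give the organism as pig and the treatment of the biopsies as xenotransplantation, and the genotype of the donor pig and the drugs of the recipient are not stated in the labels or file headers. The labels' cell type field names dissociated kidney cells, while the protocol describes homogenised core biopsies. Kidney markers were abundant in the pig table of every library, with 132513 to 370913 counts for UMOD, the uromodulin gene of the thick ascending limb, and 66989 to 122509 for CDH16, the kidney cadherin gene of tubules.

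After a graft is connected to the recipient's blood, the recipient's leukocytes enter its vessels and then its tissue. Neutrophils and monocytes of the innate system are known to come early, and monocytes can become macrophages in the tissue. NK and T cells release interferon gamma, which makes macrophages express chemokines that attract more lymphocytes, along with the tryptophan-degrading enzyme IDO1 and antigen presentation genes.

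The human transcripts were far more abundant at 48 h than at 24 h. The 1173 genes summed to 98411, 70524 and 141275 counts at 12, 24 and 48 h, against 564 and 450 in control replicates 1 and 2. Divided by the total of the pig table in the same library, which will be called the pig scale, the sums were 1556, 1066 and 2517 counts per 1000000 pig-table counts (CPM) at 12, 24 and 48 h, and 8.56 and 6.33 in the controls. The 48 h level was 2.36 times that at 24 h (95% exact interval 2.34 to 2.38, which covers counting error only). The 24 h biopsy was the lowest of the 3, at 0.685 of the 12 h level, and 48 h was 1.62 times 12 h. Of the 1173 genes, 870 had their lowest level of the 3 biopsies at 24 h and 994 had their highest at 48 h. In bulk tissue, fewer cells of a type and less RNA per cell cannot be told apart, and neither can cells in vessels and cells in tissue. The other 17746 human-table genes with 10 or more counts, which held more than 3 counts in the controls, summed to 1.15 times the 24 h level.

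A gene was counted as higher or lower when its ratio of 48 h to 24 h was at least 2-fold and its 95% counting interval lay on that side of 1. On the pig scale 787 of 1173 genes were higher (67.1%) and 14 were lower (1.19%), against 8.89% and 1.27% of the 17746 other genes. The median gene was 2.83 times its 24 h level (log2 quartiles 0.99 and 2.11). With control replicate 1 or 2 set aside, which lets more genes in (1798 and 1593), 45 and 33 were lower. The choice of genes shapes these counts: 504 members reached 10 counts at 48 h only, 50 at 24 h only and 619 in both. Members that reached 10 counts at 48 h only had to have more counts there, and those that reached it at 24 h only had to have fewer at 48 h. Several lists are therefore also given over their members with 10 counts in both biopsies. Among the 619 such genes, 405 were higher on the pig scale (65.4%) and 2 lower, and the median log2 ratio on the human scale was 0.03. The 162 members with 3 control counts had a median log2 ratio of 1.38, and the 134 genes just outside, with 4 control counts, had 0.93. A further 116 genes missed the count limit with a maximum of 9, and 66 members sat at a maximum of 10.

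**Figure D1:**
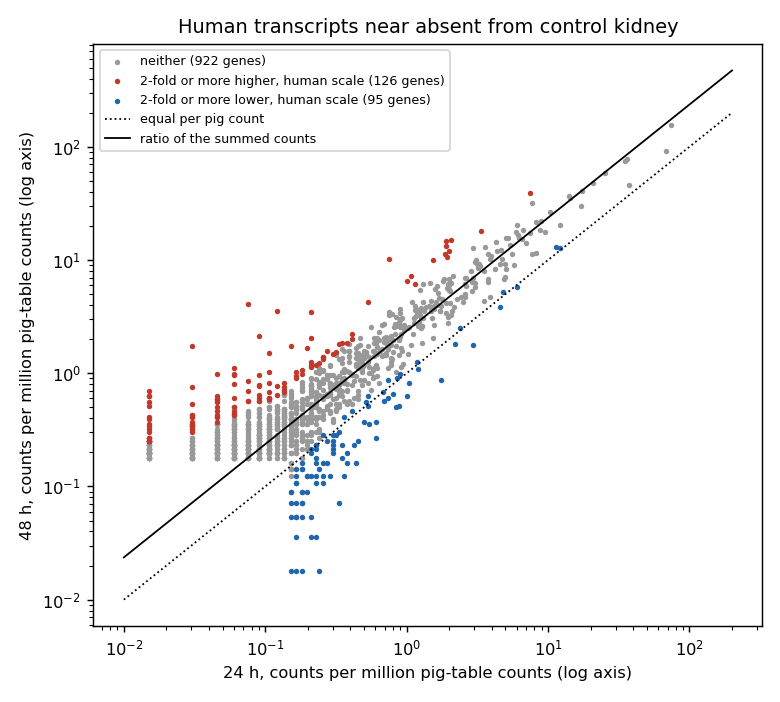
Level of each human transcript at 24 h (x axis) and 48 h (y axis) in counts per 1000000 pig-table counts, both on log axes, with 1 point per gene for the members with a count at 24 h (30 members at 0 are not drawn). Most points lie above the dotted line of equal level and around the solid line of the 2.36-fold change of the sum, with red and blue points 2-fold or more away from that line beyond counting error.

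The make-up of the human RNA was then described by dividing each count by the sum over the 1173 genes in the same biopsy, which will be called the human scale. On it 146 genes were higher (12.4%) and 95 lower (8.1%), and 812 lay within 2-fold of their 24 h share. All 146 were also higher on the pig scale, so 641 genes were higher per pig count without being 2-fold higher per human count. The median gene stood at log2 0.26 on the human scale, but at 0.03 over the 619 genes with 10 counts in both biopsies. The shift above 0 thus came mostly with members that reached 10 counts in 1 biopsy only, 504 of them at 48 h and 50 at 24 h. Scaling by TMM over all 1173 genes, which follows the bulk of genes and not the sum, put the median at 0.03. It gave 86 higher and 121 lower, so 41.5% of the called genes were higher against 60.6%. The split was 83 to 126 with the median ratio as the scale, and 43 to 45 among the 619 genes with 10 counts in both biopsies. The lower count was 264 and 212 without control replicate 1 and 2, where more genes enter.

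Most of the most abundant members kept nearly the same share of the human sum. S100A9 and S100A8 were exceptions and are described with the neutrophil genes. MT-CO3, a cytochrome oxidase subunit encoded by the human mitochondrial genome, stood at 87.2, 73.4 and 156.8 CPM at 12, 24 and 48 h. Its ratio of 48 h to 24 h was 2.14 on the pig scale and 0.904 on the human scale (interval 0.873 to 0.937). MT-ATP6, MT-ND2 and MT-ND4L had human-scale ratios of 0.914, 0.996 and 1.03. FCGR3A, the gene of the Fc receptor CD16A of NK cells and some monocytes, stood at 46.8, 35.9 and 77.3 CPM, a human-scale ratio of 0.912. IFNGR1, a chain of the interferon gamma receptor, and SERPINA1, the antitrypsin gene that monocytes and neutrophils also express, had 935 and 1146 counts at 24 h and 2042 and 2306 at 48 h, and the IFNGR1 ratio was 1.09. All of these were about as much higher at 48 h as the human sum was. Abundant genes with more than 3 control counts were outside this ranking, and some differed from the sum. LYZ had 7356 and 12240 counts at 24 and 48 h (pig-scale ratio 1.96), and CXCL10 had 1048 and 8243 (9.27).

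Neutrophil transcripts lagged behind the sum. Of 20 listed neutrophil genes 15 were members, and on the human scale 8 were lower and 1 was higher, with a median log2 ratio of -1.14 beside 0.26 over all members. Over the 14 with 10 counts in both biopsies, 8 were lower and 0 higher, with a median of -1.15 beside 0.03 over all such genes. The summed counts of the 15 stood at 239, 143 and 185 CPM at 12, 24 and 48 h. Their share of the human sum was 13.4% at 24 h (exact interval 13.2 to 13.7) and 7.35% at 48 h (7.21 to 7.49). Most of these counts were of S100A9 and S100A8, which monocytes share. They gave 4550 and 2486 of the 9471 counts at 24 h, and 5107 and 2586 of the 10382 at 48 h. On the pig scale 0 of the 15 were lower and only CEACAM3 was higher, which rests on 4 and 28 counts.

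Single neutrophil genes show how the lag varied. S100A9 and S100A8, which encode the calprotectin of neutrophils and monocytes, stood at 68.8 and 37.6 CPM at 24 h and at 91.0 and 46.1 at 48 h. Their human-scale ratios of 0.560 (0.538 to 0.583) and 0.519 (0.491 to 0.549) came close to a 2-fold lower share, and passed it under TMM (0.479 and 0.444). CXCR2, a receptor for neutrophil-attracting chemokines, stood at 2.58, 2.95 and 1.78 CPM at 12, 24 and 48 h. It was lower on the human scale at 0.256 (0.199 to 0.327), and its pig-scale ratio of 0.605 (0.470 to 0.773) was below 1 beyond counting error but not 2-fold. CXCR1, its relative, had 0.349 on the human scale. FCGR3B, the neutrophil Fc receptor CD16B, had 491, 397 and 327 counts and a human-scale ratio of 0.411. Its coding sequence is close to that of FCGR3A, so how reads were split between them is uncertain. The formyl peptide receptor genes FPR1 and FPR2, which monocytes share, had 0.786 and 0.827.

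Genes of neutrophil granules were low and went both ways. Of the 15 listed granule genes 5 were members, with 3 lower on the human scale: the collagenase gene MMP8 at 0.217, the arginase gene ARG1 at 0.347 and the olfactomedin gene OLFM4 at 0.478. For OLFM4 and ARG1 the pig table held 168 and 141 counts at 48 h, more than their 23 and 32 human-table counts. The part of pig reads in them was therefore not resolved. MMP8 had 23 and 10 counts at 24 and 48 h, beside 13 and 0 in the pig table. By the estimate given below, pig reads could supply 56.5% of its 24 h count, so its fall was not resolved either. MPO, the myeloperoxidase gene, had 6 and 16 counts (human-scale ratio 1.33) and CAMP, the cathelicidin gene, 4 and 11 (1.37), so both reached 10 counts at 48 h only. LCN2, the lipocalin gene, held 4 control counts and had a pig-scale ratio of 4.01. IL1R2, the decoy receptor for interleukin 1 that glucocorticoids induce, had 304 and 217 counts and a human-scale ratio of 0.356 (0.298 to 0.426).

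Platelet transcripts had the lowest median of the 16 lists with 3 or more members. Of 12 listed genes 4 were members, and all 4 were lower on the human scale (median log2 -2.06). PF4 and TREML1 reached 10 counts at 24 h only, so they had to have fewer counts at 48 h. The 2 members with 10 counts in both biopsies, PPBP and ITGB3, were lower on the human scale, with a median log2 of -1.81. For ITGB3 the pig reads estimated below could supply the whole count at 48 h and 66.8% of it at 24 h. PPBP, the precursor of platelet basic protein, stood at 2.04, 1.75 and 0.873 CPM at 12, 24 and 48 h, a human-scale ratio of 0.211 (0.148 to 0.297). PF4, platelet factor 4, had 45, 29 and 9 counts, a human-scale ratio of 0.155. PPBP and PF4 were also lower on the pig scale (0.498 and 0.366), so their level in the biopsy, and not only their share, was below that at 24 h. ITGB3, an integrin of platelets and other cells, had 18 and 14 counts beside 1871 and 2594 in the pig table. TREML1, a receptor of platelet granules, had 11 and 6 counts (0.272). The globin gene HBA2 of red cells had 102 and 116 counts, a human-scale ratio of 0.568 (0.431 to 0.748). CCR3, the eotaxin receptor of eosinophils and basophils, had 12, 16 and 1 counts.

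By their median, the classical monocyte members lay between the neutrophil genes and the sum. Of 14 listed classical monocyte genes 7 were members and the other 7 had more than 3 control counts. The median log2 ratio of the 7 members was -0.48 on the human scale, with 1 lower, and 0.76 on the pig scale, with 3 higher. MS4A6A, a membrane protein gene of monocytes and macrophages, tracked the sum at 31.0, 20.8 and 48.3 CPM and a human-scale ratio of 0.983. CD14, the lipopolysaccharide co-receptor, was the member that was lower, at 7.23, 11.3 and 13.0 CPM and a human-scale ratio of 0.485 (0.437 to 0.538). Its pig-scale ratio was 1.15. MNDA, a nuclear antigen of myeloid cells, had 0.718 on the human scale, and CLEC7A had 1.12. Among listed genes outside the members, LYZ had 5 control counts and a pig-scale ratio of 1.96, and FCN1 had 5 and a ratio of 2.39. The median of the 7 was 1.96, with 3 higher. Of 10 listed nonclassical monocyte genes 2 were members, FCGR3A and SIGLEC10, at 0.912 and 0.609 on the human scale. Another 6 had more than 3 control counts and a median pig-scale ratio of 2.07, with 3 higher.

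The GIMAP, LILR, SIGLEC and CLEC families of myeloid and lymphoid cells stayed near the sum, and Fc and complement receptors fell behind it. All 7 GIMAP genes, GTPases of lymphocyte and myeloid survival, were members and were higher on the pig scale, with ratios from 2.08 to 2.85. On the human scale they spanned 0.882 to 1.21, with 0 higher and 0 lower. GIMAP6 stood at 17.0, 10.4 and 26.7 CPM at 12, 24 and 48 h. The family's median log2 of 0.12 on the human scale was -0.10 under TMM and -0.14 with the median ratio as the scale. Of 23 LILR, SIGLEC and CLEC genes, which encode activating and inhibitory receptors of leukocytes, 20 were members and 15 were higher on the pig scale, a share near the 67.1% of all members. On the human scale 1 was higher, CLEC5A at 2.55 (9 and 46 counts), and 1 was lower, CLEC4D at 0.499 (35 and 35 counts). Their median of 0.07 was -0.15 under TMM, and -0.08 over the 18 members with 10 counts in both biopsies. LILRB2, an inhibitory receptor for HLA class I, stood at 12.8, 6.56 and 15.3 CPM. Fc and complement receptors gave 8 members of 19, all with 10 counts in both biopsies, and a median log2 of -0.45 on the human scale, with 3 lower: FCGR3B, CR2 and C5AR2, a second receptor of the anaphylatoxin C5a (0.422).

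**Figure D2:**
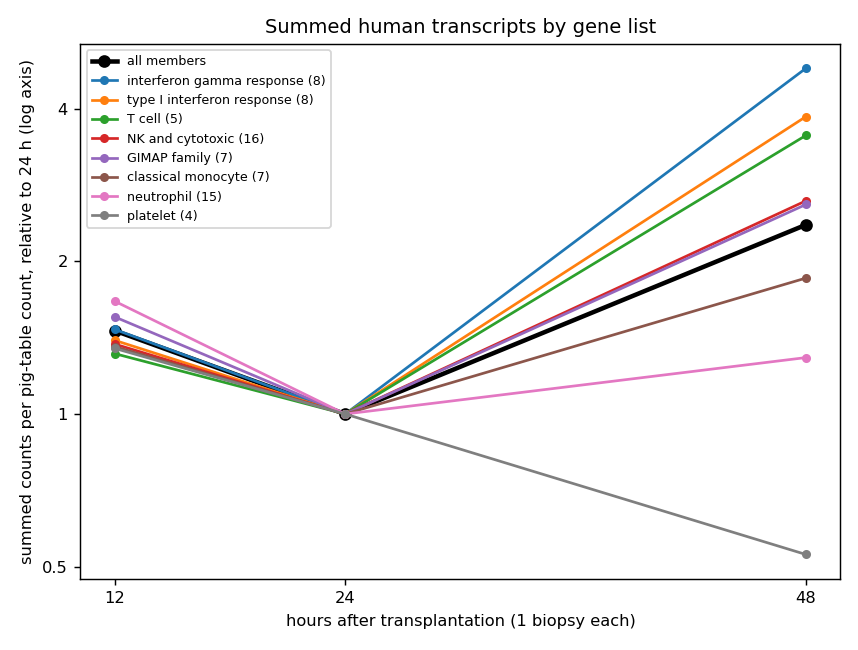
Summed counts of each gene list per pig-table count, relative to 24 h (log axis), at 12, 24 and 48 h, with 1 biopsy per time and the number of genes in brackets. All lines drawn fall from 12 to 24 h, and they spread at 48 h from 0.528 for platelet genes and 1.29 for neutrophil genes to 4.81 for interferon gamma response genes, around 2.36 for all members.

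NK and cytotoxic genes were higher per pig count by about the same factor as the sum. Of 21 listed genes 16 were members. Over the 11 with 10 counts in both biopsies 7 were higher on the pig scale, near the 65.4% of all such genes, and the other 5 members reached 10 counts at 48 h only. On the human scale the 11 had a median log2 of 0.18, and the median of all 16 was 0.23 (-0.03 with the median ratio as the scale). PRF1, the perforin gene, had 201, 189 and 449 counts at 12, 24 and 48 h, a human-scale ratio of 1.19. GNLY, the granulysin gene, had 179, 172 and 389 counts (1.13), and NKG7 and the NK receptor gene KLRD1 had 1.12 and 1.16. The members past the fold were the granzyme genes GZMA at 2.29 (27 and 124 counts) and GZMH at 4.24 (4 and 34 counts), and GZMA fell short of 2-fold under TMM (1.96). The pig table held 59 and 24 counts of GNLY and 11 and 14 of PRF1 at 24 and 48 h.

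T cell genes were few and low. Of 21 listed genes 5 were members, 9 had fewer than 10 counts and 7 had more than 3 control counts. Over the 3 members with 10 counts in both biopsies, CD4, CD2 and CD247, all 3 were higher on the pig scale and 0 were past 2-fold on the human scale. TRAC and CD8A (6 and 16 counts) reached 10 counts at 48 h only. CD4, which monocytes also express, stood at 4.84, 3.60 and 13.0 CPM, a human-scale ratio of 1.53 (1.32 to 1.78). CD2, an adhesion receptor of T and NK cells, had 29, 22 and 75 counts (1.70), and CD247, the zeta chain of the T cell receptor complex, had 46, 49 and 110 (1.12). TRAC, the constant region of the T cell receptor alpha chain, had 1, 0 and 18 counts. With 3 counts put in place of the 0 at 24 h, its pig-scale ratio was 7.07, a value that depends on that floor. The 7 genes with more than 3 control counts had a median pig-scale ratio of 3.35, from 1.47 to 66.0, with 5 higher. Their control counts of 4 to 62 show that pig reads also count there. CD3E, with 6 control counts, had 11 and 46 counts (4.93). IL7R, with 4 control counts, had 1 and 56 counts and the ratio of 66.0. Of the 6 members among genes of T cell activation, 4 had 10 counts in both biopsies. Of these 4, 3 were higher on the pig scale and 1 on the human scale, and their median log2 on the human scale was 0.26. The 1 was the early activation antigen gene CD69 at 2.04 (21 and 86 counts, 1.75 under TMM). IL2RA, the high-affinity interleukin 2 receptor chain, reached 10 counts at 48 h only and stood at 5.62 (4 and 45 counts). TNFRSF4, the OX40 gene, had 1 and 12 counts, and its interval reached below 1. The B and plasma cell list had 2 members, CD79B at 22 and 45 counts and FCER2 at 2 and 11.

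Interferon response genes gained share of the human RNA. Of 22 interferon gamma response genes 8 were members, and all 8 were higher on the pig scale. All 8 had 10 counts in both biopsies. On the human scale 3 were higher and 0 lower, with a median log2 of 0.85, beside 0.26 over all members and 0.03 over the 619 genes with 10 counts in both. Their share of the human sum was 1.66% at 24 h (1.56 to 1.75) and 3.37% at 48 h (3.28 to 3.47). The other 14 genes of the list had more than 3 control counts, and 12 of these were higher on the pig scale, with ratios from 1.60 to 11.6.

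IDO1 had the largest change of the list. It stood at 0.996, 0.756 and 10.2 CPM at 12, 24 and 48 h, with 0 counts in both controls. Its ratio was 13.5 on the pig scale (10.1 to 18.5) and 5.73 on the human scale (4.29 to 7.81). CXCL11, a ligand of the lymphocyte receptor CXCR3, stood at 2.40, 2.07 and 15.2 CPM, 7.32 on the pig scale and 3.10 on the human scale (2.59 to 3.74). In the pig table the same symbols had 32 and 29 counts for IDO1 and 896 and 393 for CXCL11 at 24 and 48 h, so the pig-table count of CXCL11 was lower at 48 h while the human-table count was higher. APOL3, an apolipoprotein L gene, had 355, 221 and 1021 counts, 2.31 on the human scale (1.97 under TMM). APOL6 had 598, 397 and 1140 counts (1.43), and ANKRD22 had 1.85. IFNG itself, the gene of interferon gamma, had 34, 16 and 56 counts and a human-scale ratio of 1.75 (0.988 to 3.26).

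Type I interferon response genes gave 8 members of 22, of which 6 had 10 counts in both biopsies. These 6 were higher on the pig scale, 1 was higher on the human scale, and their median log2 on the human scale was 0.66. The other 14 had more than 3 control counts, and all 14 were higher on the pig scale, from 2.57 to 4.81. OAS3, a sensor of double-stranded RNA, stood at 1.71, 1.15 and 6.13 CPM, 2.26 on the human scale (1.76 to 2.94; 1.93 under TMM). IFI27 had 3, 8 and 43 counts (2.68) and USP18, a feedback inhibitor of the pathway, 5, 1 and 15 (7.49, interval 1.15 to 315, no longer past the interval under TMM, and with 411 pig-table counts at 48 h). SIGLEC1, the sialoadhesin of macrophages, IFI44, XAF1 and ISG15 had 1.28, 1.52, 1.65 and 1.80. Genes of HLA class II held more than 3 control counts in 9 of 10 cases and gave no members. Those 9 were all higher on the pig scale, with ratios from 3.24 to 6.30, though their control counts of 4 to 3304 show that pig reads also count there.

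Cytokine genes were rare. Of 24 listed genes 8 were members, and 4 of these reached 10 counts at 48 h only, CCL8 among them. The other 4 were higher on the pig scale, 1 was higher on the human scale, and their median log2 on the human scale was 0.64. CXCL8, the neutrophil chemokine interleukin 8, had 19, 17 and 78 counts, 2.29 on the human scale (1.34 to 4.13; 1.96 under TMM). CCL8, a monocyte chemokine, had 14, 6 and 44 counts (3.66, interval 1.55 to 10.5). CCL3 had 85, 46 and 152 counts (1.65), IL1B 52, 29 and 85 (1.46) and TNF 54, 47 and 85 (0.903).

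**Figure D3:**
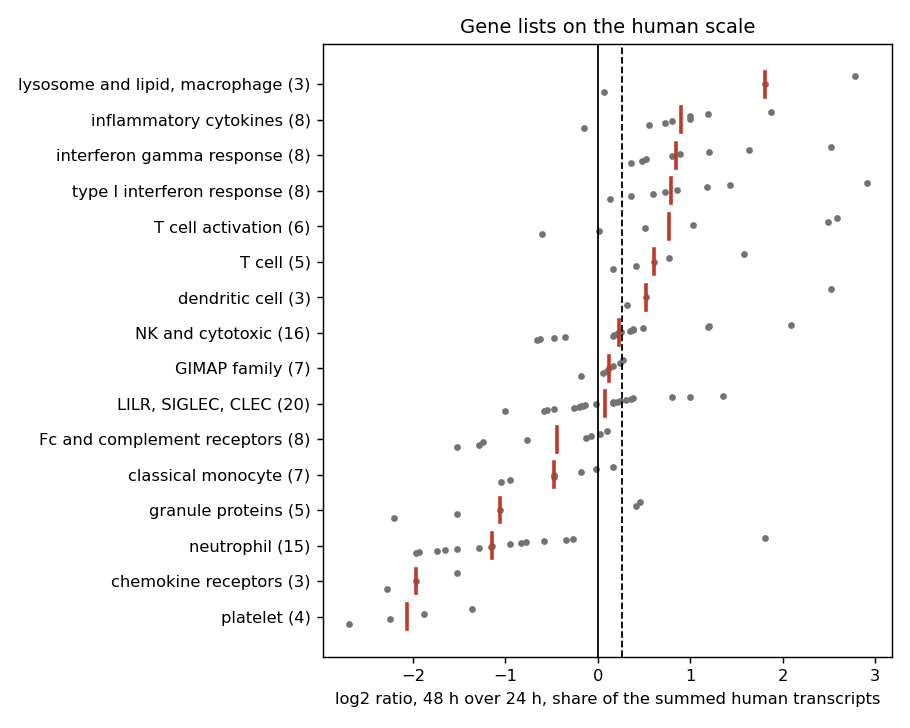
Log2 ratio of 48 h to 24 h in the share of the summed human transcripts, with 1 point per gene, red bars at list medians and the number of members in brackets, for the 16 lists with 3 or more members. The solid line is 0 and the dashed line the median of all members (0.26), and list medians run from -2.06 for platelet genes to 1.81 for the 3 macrophage lysosome and lipid genes, medians that include members with 10 counts at 48 h only.

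Macrophage genes did not move together. Of 17 listed genes of lysosomes and lipid handling 3 were members. The 14 with more than 3 control counts had a median pig-scale ratio of 1.36, from 0.742 for LGMN to 5.39 for APOE, with 4 higher. Control counts of 19 to 29537 in these 14 show that pig reads count there, so their ratios cannot be set against the human sum. APOC1, an apolipoprotein of lipid-laden macrophages, stood at 0.0158, 0.212 and 3.44 CPM (1, 14 and 193 counts), 16.3 on the pig scale (9.45 to 30.3) and 6.88 on the human scale. OLR1, a receptor for oxidised low-density lipoprotein outside that list, had 23, 7 and 85 counts (6.06, interval 2.82 to 15.5). TREM2, a lipid-sensing receptor, had 9, 4 and 28 counts (3.49), beside 156 and 268 in the pig table. Like OLR1, it reached 10 counts at 48 h but not at 24 h. The scavenger receptor gene MARCO had 327, 262 and 609 counts (1.16) and the lysosomal protease gene CTSD 475, 414 and 871 (1.05), so they moved with the sum. Of 20 listed macrophage genes 15 had more than 3 control counts, and 7 of these were higher on the pig scale, with a median ratio of 1.84 over the 15. Their control counts of 10 to 900 show that pig reads also count there. The complement genes C1QA, C1QB and C1QC had 2.69, 2.86 and 2.93, CHI3L1, a chitinase-like protein gene, had 12.3, and CD163, the haemoglobin scavenger receptor, had 1.27. Of 14 listed dendritic cell genes 3 were members. CLEC10A, at 1.43 on the human scale, had 10 counts in both biopsies. CD1C, at 1.25, and LAMP3, a marker of mature dendritic cells, at 5.74 with 2 and 23 counts, reached 10 counts at 48 h only.

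Proliferation genes were among the highest ratios, and the pig-table counts of most of them were higher at 48 h as well. MKI67, the Ki-67 gene of dividing cells, had 1, 6 and 120 counts and 9.98 on the human scale (4.45 to 27.7), and its symbol was not in the pig table. CENPF, a kinetochore gene, had 5, 8 and 199 counts (12.4), and ASPM, a spindle pole gene outside the list, had 4, 2 and 97 (24.2, interval 6.52 to 203). MKI67 and CENPF were the members among 22 listed proliferation genes. Both reached 10 counts at 48 h only, so they had to have more counts there. Another 19 had more than 3 control counts, with human-table ratios on the pig scale from 1.94 to 23.7. Of the listed genes 18 were measured in the pig table and had ratios from 1.86 to 21.1 (median 8.46). The part of the human counts that pig reads could supply was estimated from the controls, as the human-table control count (taken as 3 where lower) per pig-table control count, times the pig-table count at 48 h. For CENPF, CDCA3, ASPM, CKAP2L and KIF18B it came to 28.8%, 40.5%, 90.5%, 100.5% and 125% of the human-table count at 48 h. For these 5 genes human transcripts and pig reads counted as human cannot be told apart.

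The same estimate at 48 h was 1.38% for IDO1, 3.65% for CXCL11, 0.0167% for GNLY, 1.71% for CD14, 4.94% for OLR1 and 0.870% for S100A8. It was larger for USP18 (39.3%), TREM2 (75.6%), OLFM4 (84.3%) and ITGB3 (119%). At 24 h the estimate was 51.6% for CXCL11, 35.3% for OLR1, 31.6% for CXCL8 and 156% for IL2RA. It stayed low there for CD14 (1.61%), GNLY (0.0928%) and S100A8 (1.33%). A low estimate at 48 h thus does not clear the 24 h count. Of the 1173 genes, 288 had at most 20% at 48 h, 178 had more or no pig count in the controls to judge by, and 707 symbols were not in the pig table. The 288 alone summed to 2.42 times their 24 h level per pig count, with 211 higher and 2 lower. The estimate sees only reads that the pig table counts under the same symbol.

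**Figure D4:**
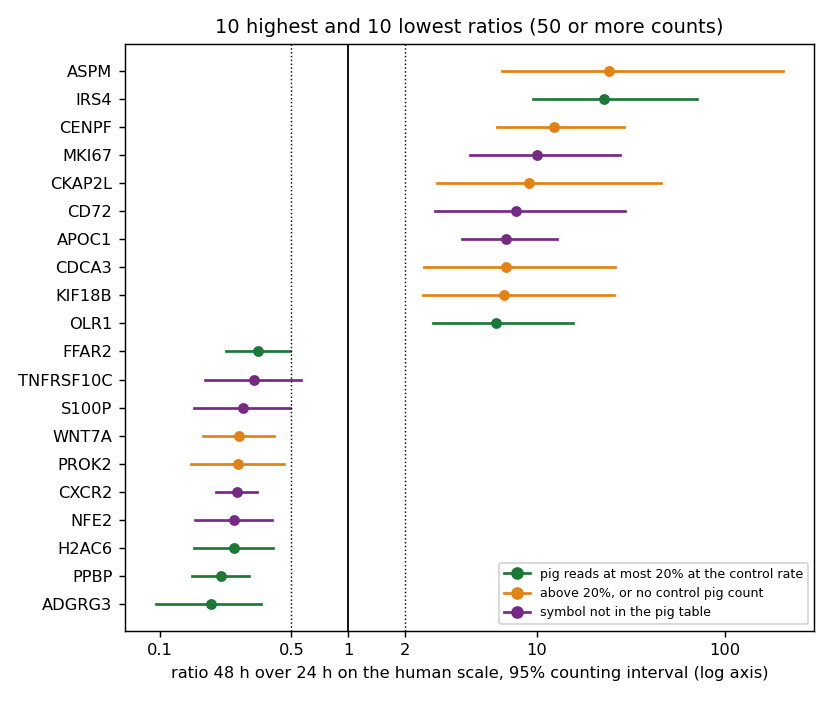
Ratio of 48 h to 24 h on the human scale (log axis) for the 10 highest and 10 lowest of 455 genes with 50 or more counts over both biopsies, with 95% counting intervals and dotted lines at 2-fold. Colours give the share of the 48 h count that pig reads could supply at the control rate, which exceeded 20% for 5 of the 10 highest genes. All of the 10 highest but APOC1 had fewer than 10 counts at 24 h.

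Of the 455 nameable genes with 50 or more counts over both biopsies, the 10 lowest on the human scale included CXCR2, PROK2, TNFRSF10C and FFAR2, which neutrophils express, S100P, the platelet gene PPBP, and NFE2, a transcription factor of platelet and red cell precursors (58 and 29 counts, 0.250). ADGRG3, an adhesion receptor of granulocytes, was the lowest at 0.187 (40 and 15 counts). The histone gene H2AC6 and the ligand gene WNT7A completed the 10, and the pig table held 158 and 79 counts of WNT7A. Besides the proliferation and lipid genes, the 10 highest held CD72, a B cell and macrophage receptor (4 and 62 counts, 7.74), and IRS4, an insulin receptor substrate (5 and 228 counts, 22.8), for which the controls held 1 and 2 counts and the 12 h biopsy 0. All of the 10 highest but APOC1 (14 counts) had fewer than 10 counts at 24 h, so the count limits fixed their direction.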

How the data were processed

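The authors deposited raw counts per gene symbol in a pig table (15235 symbols) and a human table, per the file headers. The submitters' processing notes name hg38. Aligner, counter, annotation, strand setting and competition between the genomes are not named in the labels or headers. Libraries were depleted of ribosomal RNA, per the labels' protocols. XIST, TSIX and Y-linked symbols were removed from the human table.

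Pig-table totals were 56129926 to 71108823 and human-table totals 13385177 to 19734615 counts. Ratios of 48 h to 24 h were taken without a pseudocount, with exact conditional binomial 95% intervals (Python 3.11.15, scipy 1.17.1). Counts of 0 were set to 3, so ratios from them depend on that floor and are not confidence limits. Intervals cover counting error only. With 1 library a time, the main comparison has no test. edgeR 4.0.16 (R 4.3.3) was run as an alternative, with the spread of the control pair and TMM. Scripts were tested on simulated data.

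Members and lists were chosen with earlier results of these data known. Named genes were the 10 highest and 10 lowest ratios among members with 50 or more counts, the 10 most abundant, and up to 4 a list. Other named genes were chosen after their values were seen. No clone-type symbol, receptor variable segment or gene whose presence differs between people was named. Alternatives changed the scales, the limits on counts, the fold and the controls used.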

Additional observations from a re-analysis of the deposited data

How the results depend on the processing

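The summed level of human transcripts was 2.36 times higher at 48 h and stayed above 2-fold under every alternative run. It was 2.29 with pig totals lacking mitochondrial genes, 2.17 with TMM sizes of the pig table and 2.65 over genes with 0 control counts. Alternatives chosen after seeing the data gave 2.42 over the 288 genes with a pig-read estimate of at most 20% at 48 h. They gave 2.30 over genes with 10 counts in both biopsies and 2.40 without MT genes. On the pig scale the higher and lower counts were 454 and 5 of 636 genes with 0 control counts, and 295 and 1 of 369 genes with 50 or more counts in a biopsy. On the human scale these were 58 and 45, and 51 and 18. With up to 10 control counts (2025 genes), 1099 were higher and 58 lower on the pig scale, and 190 and 347 on the human scale, where the lower share was 17.1% against 8.1%. With 20 or more counts over both biopsies, 6 were lower on the pig scale. Among genes with 10 counts in both biopsies, the counts were 405 and 2 on the pig scale and 43 and 45 on the human scale. Among the 288 genes they were 211 and 2, and 33 and 23. Without 1 control replicate, the lower count ranged from 33 to 45 on the pig scale and from 212 to 264 on the human scale, where it passed the higher count of 164 to 184. Other scalings gave 83 and 86 higher on the human scale (median ratio and TMM). Dropping the interval gave 29 lower on the pig scale and 251 higher on the human scale. edgeR's quasi-likelihood test, with the spread of the control pair over all 5 libraries, tested 1106 members. It called 225 higher and 1 lower at a Benjamini-Hochberg adjusted threshold of 0.05 (500 and 14 at an unadjusted p under 0.05), beside 756 and 250 of all 19325 genes tested. The biopsies are assumed there to vary like the controls, in which these genes are near 0. Of the 16 list medians on the human scale, the GIMAP, NK and LILR lists changed sign with the scale or the limits. Depth limits genes with few counts at 24 h, whose intervals can be very wide, such as 6.52 to 203 for ASPM on the human scale. No paired analysis was possible because each time after 0 h has 1 library.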

Other observations

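Several abundant members outside the lists also gained share at 48 h, and they are named here after their values were seen. TYMP, the thymidine phosphorylase gene, had 865, 490 and 2213 counts at 12, 24 and 48 h and a human-scale ratio of 2.25 (2.04 to 2.49). SLAMF8 and SLAMF7, receptors of the SLAM family on macrophages and lymphocytes, had 126 counts each at 24 h and 834 and 739 at 48 h, with ratios of 3.30 (2.74 to 4.02) and 2.93 (2.42 to 3.57). CD38, an ectoenzyme of activated leukocytes, had 67 and 363 counts (2.70), APOL4 124 and 629 (2.53), PLAAT4 131 and 676 (2.58), CALHM6 101 and 563 (2.78) and GM2A, a lysosomal lipid transfer protein gene, 128 and 594 (2.32). For SLAMF7, CD38 and GM2A the pig-read estimate was 0.0479%, 0.534% and 0.833% of the 48 h count.

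Some abundant genes changed less than the sum per pig count. RNASE1, a secreted ribonuclease gene, had 630, 803 and 710 counts, a pig-scale ratio of 1.04 and a human-scale ratio of 0.441 (0.398 to 0.489). CD55, a complement regulator gene, had 337, 234 and 246 counts, 1.24 on the pig scale (1.03 to 1.49). COL17A1, an epithelial collagen gene that is not a leukocyte gene, had 71 and 405 counts, beside 532 and 2729 in the pig table, and its pig-read estimate was 50.5%.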
